A study of Mus musculus with 32 samples.

Results

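Axons are kept alive by the cofactor NAD and are dismantled when its local supply fails, and 8 genes at the centre of that switch were followed here through 2 populations of cortical layer 5b neurons and the tissue around them. They were chosen by symbol as Sarm1, Nmnat1, Nmnat2, Nmnat3, Nampt, Mycbp2, Map3k12 and Map3k13, and are 8 of the 24091 genes with a symbol in the count tables. NAMPT makes nicotinamide mononucleotide (NMN) from nicotinamide, and the NMNAT enzymes turn NMN into NAD, NMNAT1 in the nucleus, NMNAT2 in the Golgi and axon and NMNAT3 in mitochondria. NMNAT2 is short-lived and must be carried down the axon; when it is lost NMN builds up, the NADase SARM1 is switched on, and the axon breaks down. MYCBP2 (PHR1) is part of a ubiquitin ligase that lowers NMNAT2 in axons, and DLK (Map3k12) and LZK (Map3k13) are injury-sensing kinases that signal through JNK and also affect how long NMNAT2 survives.

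The series holds 32 mouse RNA-seq libraries in 10 groups, from adult animals of 8 to 17 weeks. In bacTRAP mice the ribosomal protein L10a fused to EGFP is expressed from a bacterial artificial chromosome, so that ribosome-bound RNA of the marked cells can be pulled down (IP) and set beside RNA of the whole homogenate (input). The Gprin3 line ES152 marks lower layer 5b pyramidal cells and the Colgalt2 line DU9 marks upper layer 5b pyramidal cells, as the labels state it, and every library comes from animals with one of these transgenes. The baseline set, from motor cortex (M1), has 2 IPs and 3 inputs of the Gprin3 line and 2 IPs and 2 inputs of the Colgalt2 line. In the second set the lines were crossed to SOD1*G93A mice, which carry a mutant human SOD1 transgene and model amyotrophic lateral sclerosis, and libraries from SOD1*G93A and wild-type (WT) animals were made. It has 2 WT and 3 SOD1*G93A Gprin3 IPs, 3 WT and 4 SOD1*G93A Colgalt2 IPs, and 5 WT and 6 SOD1*G93A inputs of M1 from the Gprin3 line. For the Colgalt2 IPs of this set the labels disagree: the brain region and the extract protocol give whole cortex, and the source name gives M1. They are taken here as whole cortex. The labels do not say which samples came from separate animals, so the p-values below measure the spread between these samples. A lower value in bulk RNA can come from fewer cells of a type or from less RNA per cell, which cannot be told apart.

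Library totals ran from 10865185 to 77228512 counts. The summed level of 12 layer 5b markers was 1550 to 3084 CPM (counts scaled to the library total) over all IPs and 706 to 829 CPM over all inputs, so the pulled-down RNA carried the markers its label calls for. The WT Gprin3 IPs stood apart from the other Gprin3 IPs in their glial content: 8 oligodendrocyte markers summed to 412 and 571 CPM there, to 120.2 to 145 CPM in SOD1*G93A and to 147 to 161 CPM at baseline. Of 8 oligodendrocyte and 8 astrocyte markers, 5 and 5 were called lower in SOD1*G93A than in WT Gprin3 IPs, and none higher. Over all 13726 genes tested there, 5.22% were called lower and 2.92% higher. Summed over 8 interneuron markers, Gprin3 IPs had 1528 to 1943 CPM, Colgalt2 IPs 225 to 803 CPM and inputs 1041 to 1192 CPM. Sod1 counts, which may take in reads of the human transgene, were 691 to 733 CPM in SOD1*G93A and 320 to 323 CPM in WT Gprin3 IPs, but 470 to 801 CPM in baseline Gprin3 IPs. Fold changes went with transcript length across genes, which are not independent replicates, in most IP comparisons, with Spearman coefficients of −0.39 for Gprin3 against Colgalt2 IPs at baseline, −0.39 for SOD1*G93A against WT in Gprin3 IPs, and 0.04 in M1 input. An alternative fit took this length trend out. Genes were tested with edgeR (quasi-likelihood F test) and Benjamini-Hochberg (BH) adjustment of p over all genes tested, fold changes are log2 with standard errors, and a gene is called at an adjusted p under 0.05. Because the fit scales libraries by TMM factors, a fold change can exceed the ratio of the CPM values beside it.

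The 8 genes lie on 8 chromosomes. In GENCODE coordinates of GRCm38 (mm10), Sarm1 is at chr11:78472330-78497754, Nmnat1 at chr4:149467572-149485202, Nmnat2 at chr1:152954993-153119261, Nmnat3 at chr9:98287435-98420438, Nampt at chr12:32819545-32853349, Mycbp2 at chr14:103113411-103346814, Map3k12 at chr15:102497646-102517064 and Map3k13 at chr16:21794346-21933439. Promoters of 3 of them are shown because Sarm1 and Map3k12 had like patterns over the 10 groups and Nmnat3 had the largest difference with SOD1*G93A among the 8. Each run is the part of RefSeq's window before the start site (GRCm38.p6) that lies outside annotated exons, read 5′ to 3′ on the gene's strand; Map3k12 has 2 annotated starts. Capitals mark a GC box (GGGCGG) or an E-box (CACGTG) on either strand.
Sarm1, chr11:78497755-78498004, minus strand: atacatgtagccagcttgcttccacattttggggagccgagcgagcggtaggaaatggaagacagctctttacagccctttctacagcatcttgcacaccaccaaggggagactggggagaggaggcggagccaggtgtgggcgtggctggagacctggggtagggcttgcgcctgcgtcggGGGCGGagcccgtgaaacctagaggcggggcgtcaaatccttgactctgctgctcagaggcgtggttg
Map3k12, chr15:102517065-102517254, minus strand: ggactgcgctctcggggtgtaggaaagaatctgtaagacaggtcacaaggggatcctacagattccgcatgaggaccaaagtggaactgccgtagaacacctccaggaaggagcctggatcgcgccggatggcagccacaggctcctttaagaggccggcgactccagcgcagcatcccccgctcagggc
Map3k12, chr15:102510793-102510950, minus strand: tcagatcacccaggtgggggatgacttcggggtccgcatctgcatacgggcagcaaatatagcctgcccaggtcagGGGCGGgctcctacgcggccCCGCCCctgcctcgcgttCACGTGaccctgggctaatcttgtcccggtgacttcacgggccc
Nmnat3, chr9:98296320-98296569, plus strand: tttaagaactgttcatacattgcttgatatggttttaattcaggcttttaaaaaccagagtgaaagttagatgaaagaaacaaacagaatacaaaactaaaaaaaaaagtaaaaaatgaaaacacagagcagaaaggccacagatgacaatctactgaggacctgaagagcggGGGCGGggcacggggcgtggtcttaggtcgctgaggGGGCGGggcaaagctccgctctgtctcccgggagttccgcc

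Of 32851 mouse promoter windows of 300 bases in the table, 35.7% hold a GC box, 7.15% an E-box, 1.79% a cAMP response element (TGACGTCA) and 5.2% an AP-1 site (TGAGTCA), the site bound by the JUN proteins that JNK acts on. The table had 9 windows for 7 of the 8 genes, with none for Mycbp2. In the full windows, Nampt had 5 GC boxes, Nmnat3 had 4, the downstream Map3k12 start had 2, and Sarm1, the other Map3k12 start and both Nmnat1 starts had 1 each. Nmnat2 and Map3k13 had no GC box in their windows. The E-box letters, which read the same on both strands, occurred only in the window of the downstream Map3k12 start, and neither TGACGTCA nor TGAGTCA was in any of the 9 windows.

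The levels of the 8 genes were ordered alike in almost every group. Per kilobase of the longest annotated transcript, Nmnat2 was the highest of the 8 in 10 of 10 groups, with means of 41.8 to 54.8 CPM per kilobase. Nmnat1 and Nmnat3, the nuclear and mitochondrial enzymes, took the lowest 2 places in every group, at 1.73 to 2.95 and 0.849 to 3.72 CPM per kilobase. Nampt, Mycbp2 and Map3k12 shared places 2 to 4, at 17.1 to 30.9, 12.2 to 49.5 and 8.11 to 25.4 CPM per kilobase, and Sarm1 (3.64 to 9.01) and Map3k13 (4.16 to 8.03) took places 5 and 6. The group means of Nmnat2 lay closest together in ratio of the 8. All 8 were measured in all 32 libraries, the lowest count being 22, for Nmnat3, and all 8 passed the low-count filter in all 11 comparisons.

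**Figure D1:**
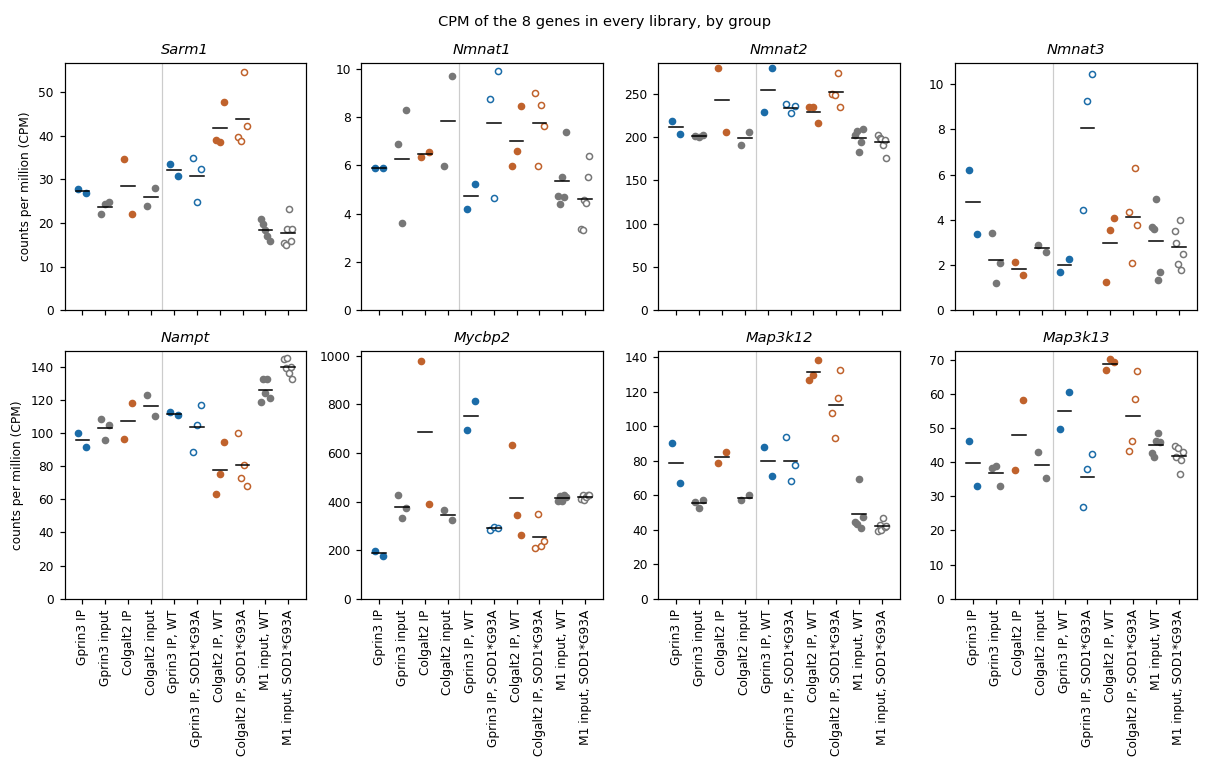
CPM of each gene (vertical axes, from 0) in every library, by group (horizontal axis); points are libraries, filled for baseline and WT and open for SOD1*G93A, blue for Gprin3 IPs, orange for Colgalt2 IPs and grey for inputs, with bars at the group means and a line between the baseline and second sets. Mycbp2 runs from 177 to 979 CPM among the IPs, while its 16 inputs stay between 326 and 429 CPM.

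Sarm1, the NADase that executes axon breakdown, was called higher in Gprin3 IPs than in tissue in the second set, and was not called at baseline in either line. In the second set it measured 33.5 and 30.7 CPM in WT Gprin3 IPs and 34.9, 24.8 and 32.4 CPM in SOD1*G93A Gprin3 IPs. The inputs ran from 15.96 to 20.8 CPM (median 18.4) in WT and from 14.9 to 23.1 CPM (median 17.2) in SOD1*G93A. Neither genotype's IPs overlapped its inputs. Sarm1 rose by 0.93 ± 0.15 on the log2 scale in WT IPs over input (adjusted p = 8.87e-05, edgeR's quasi-likelihood test, BH) and by 0.87 ± 0.17 in SOD1*G93A IPs (adjusted p = 0.00068). The baseline IPs measured 27.7 and 26.9 CPM against inputs of 22.1, 24.3 and 24.9 CPM. These did not overlap either, but the difference of 0.42 ± 0.19 was not called (edgeR adjusted p = 0.12). Its highest levels were in the Colgalt2 IPs of the second set, at 39.0, 38.4 and 47.7 CPM in WT and 39.7, 38.8, 54.6 and 42.3 CPM in SOD1*G93A, for which the series has no input of the same line in this set. The baseline Colgalt2 IPs were split, with 34.7 and 22.0 CPM around inputs of 23.9 and 27.9 CPM (0.38 ± 0.26, edgeR adjusted p = 0.402).

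Nmnat2, the axonal survival factor, was the steadiest of the 8. WT Gprin3 IPs of the second set measured 229 and 280.0 CPM and SOD1*G93A Gprin3 IPs 239, 227 and 236 CPM. Inputs ran from 183 to 209 CPM (median 202) in WT and from 176 to 202 CPM (median 197) in SOD1*G93A. All 5 IPs lay above all 11 inputs. The rise over input was 0.48 ± 0.09 in WT (edgeR adjusted p = 0.000469) and 0.35 ± 0.07 in SOD1*G93A (edgeR adjusted p = 0.00129). At baseline the Gprin3 IPs had 219 and 204 CPM and their inputs a mean of 201 ± 1.02 CPM (SD, n = 3), all 3 below both IPs, a difference of 0.29 ± 0.13 that was not called (edgeR adjusted p = 0.112). Colgalt2 IPs of the second set measured 235, 235 and 217 CPM in WT and 250, 248, 273 and 235 CPM in SOD1*G93A. Nmnat2 begins 444298 bases beyond the end of the driver gene Colgalt2 on chromosome 1, yet the Colgalt2-line inputs (190 and 206 CPM) spanned the values of the baseline Gprin3-line inputs, while Colgalt2 itself was at 52.8 to 57.0 CPM in its own line's inputs and 3.67 to 4.96 CPM in the other's.

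Set against Sarm1 within a library, Nmnat2 per kilobase was 10.2 to 13.8 times as high in WT M1 inputs and 8.65 to 14.1 times in SOD1*G93A inputs. The baseline M1 inputs lay lower, at 8.53 to 9.59 in the Gprin3 line, which overlaps SOD1*G93A, and at 7.76 and 8.35 in the Colgalt2 line. In Colgalt2 IPs of the second set the ratio was 4.77 to 6.42 in WT and 5.26 to 6.71 in SOD1*G93A, below every M1 input. In Gprin3 IPs it was 7.16 to 9.58 in WT, 7.17 to 9.62 in SOD1*G93A and 7.96 to 8.29 at baseline, above the Colgalt2 IPs of the second set. The SOD1*G93A Gprin3 IPs overlapped the SOD1*G93A inputs, and the baseline Gprin3 IPs lay below their own inputs. The baseline Colgalt2 IPs had ratios of 8.45 and 9.79, above their own inputs. The low values of the Colgalt2 line were thus seen in the second set, whose IPs most labels give as whole cortex, and not in the baseline set. Line and tissue cannot be told apart in the second set.

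Nmnat3, the mitochondrial enzyme, was scarce but was the member with the highest fold change in SOD1*G93A. Gprin3 IPs measured 1.70 and 2.26 CPM in WT and 4.43, 9.25 and 10.5 CPM in SOD1*G93A, without overlap. The difference was 2.01 ± 0.58 on the log2 scale and was not called (edgeR adjusted p = 0.0615). Nor was it called with the length trend taken out (1.82, edgeR adjusted p = 0.124) or with the replicate number as a block (1.70, edgeR adjusted p = 0.13). Without the first SOD1*G93A IP it was called, at 2.29 (edgeR adjusted p = 0.00905). DESeq2's Wald test did call it, at 2.01 with an adjusted p of 0.00862, and so does the authors' deposited table, with a log2 fold change of 2.05 and an adjusted p of 0.00999. M1 inputs ran from 1.35 to 4.92 CPM (median 3.598) in WT and from 1.80 to 4.01 CPM (median 2.74) in SOD1*G93A, a difference of −0.08 ± 0.29. The effect in Gprin3 IPs exceeded that in input by 2.08 ± 0.62, and this interaction was called (edgeR adjusted p = 0.0229). It rests on the 2 WT IPs: leaving out one or the other raised the adjusted p to 0.102 and 0.0714 with the difference at 1.91 and 2.31. SOD1*G93A IPs were 1.58 ± 0.34 above SOD1*G93A inputs (edgeR adjusted p = 0.00134). The baseline Gprin3 IPs, with no SOD1*G93A transgene, measured 6.22 and 3.37 CPM, both above the WT IPs of the second set, one within and one below the range of the SOD1*G93A IPs. In Colgalt2 IPs the values overlapped, at 1.25, 3.56 and 4.10 CPM in WT and 4.36, 2.10, 6.28 and 3.78 CPM in SOD1*G93A, and the difference between the lines' effects, 1.59 ± 0.79, was not called (edgeR adjusted p = 0.561).

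Nmnat1, the nuclear enzyme, was found at 3.33 to 9.90 CPM throughout, with wide scatter within groups. SOD1*G93A Gprin3 IPs measured 8.74, 4.66 and 9.90 CPM and their inputs 3.33 to 6.37 CPM (median 4.50), which overlap. The difference of 0.84 ± 0.30 was called (edgeR adjusted p = 0.0314), but it lost the call when any of 6 single libraries was left out, with adjusted p of up to 0.144. WT Gprin3 IPs, at 4.20 and 5.24 CPM, lay below and within the range of the WT inputs, 4.41 to 7.38 CPM.

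Nampt, the salvage enzyme that supplies NMN, was lower in SOD1*G93A Gprin3 IPs than in tissue. In SOD1*G93A animals the Gprin3 IPs measured 88.7, 105 and 117 CPM, below all 6 inputs at 133 to 145 CPM (median 139.9). It fell by 0.36 on the log2 scale in these IPs (SE 0.09, edgeR adjusted p = 0.00383). WT IPs, at 113 and 111 CPM, were also below the WT inputs at 119 to 133 CPM, but after scaling the difference was −0.05 ± 0.10 and was not called (edgeR adjusted p = 0.707). The SOD1*G93A effect in IPs less that in input was −0.32 ± 0.13, which was not called (edgeR adjusted p = 0.0889). It was −0.14 with the length trend taken out (edgeR adjusted p = 0.48) and was called at −0.44 with the replicate number as a block (edgeR adjusted p = 0.0403). In M1 input, the 6 SOD1*G93A libraries had a mean of 139.9 ± 4.89 CPM (SD, n = 6) and the 5 WT libraries 126 ± 6.51 CPM (SD, n = 5). That difference of 0.19 ± 0.06 was not called by edgeR (adjusted p = 0.0824) and was called by DESeq2 (adjusted p = 0.0235).

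Map3k12, which encodes DLK, was the member most regularly higher in the IPs. Baseline Gprin3 IPs measured 90.3 and 66.8 CPM against 56.1, 52.3 and 57.4 CPM in their inputs. In the second set Gprin3 IPs measured 88.2 and 71.0 CPM in WT and 93.7, 68.1 and 77.2 CPM in SOD1*G93A. Inputs ran from 40.8 to 69.3 CPM (median 44.6) in WT and from 39.4 to 46.9 CPM (median 41.8) in SOD1*G93A. No IP overlapped the inputs of its group. The rise was 0.73 ± 0.17 at baseline (edgeR adjusted p = 0.00798; 0.0601 without the first baseline IP, where it was 0.46), 0.83 ± 0.16 in WT (edgeR adjusted p = 0.00051) and 1.001 ± 0.12 in SOD1*G93A (edgeR adjusted p = 7.17e-06). Baseline Colgalt2 IPs, at 78.7 and 85.1 CPM, lay above their inputs at 56.9 and 59.9 CPM by 0.77 ± 0.22, which was not called (edgeR adjusted p = 0.0911). Colgalt2 IPs of the second set had the highest group means, with 127, 130.0 and 138 CPM in WT and 108, 93.5, 116 and 133 CPM in SOD1*G93A.

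WT Gprin3 IPs were below WT Colgalt2 IPs in Map3k12 by 0.75 ± 0.20 on the log2 scale, a called difference (edgeR adjusted p = 0.0308) in which line and tissue cannot be told apart. It lost the call without either WT Gprin3 IP or without the second WT Colgalt2 IP, with adjusted p of 0.131, 0.316 and 0.112. At baseline, where both lines were taken from M1, the IPs overlapped and the difference was −0.06 ± 0.28. Map3k12 shares 1573 exon bases with Pcbp2 on the other strand, and the sources used here do not state that reads were counted by strand, so reads of the pair may have been mixed. Pcbp2 was not called in any of the 11 comparisons, but between the WT IPs of the lines it went the same way as Map3k12, at 87.2 to 96.1 CPM in Gprin3 and 118 to 140.0 CPM in Colgalt2 IPs (−0.50 ± 0.19, edgeR adjusted p = 0.106). Against WT input, at 111 to 129 CPM, it went the other way from Map3k12. How far mixed reads enter the Map3k12 values was not tested.

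Map3k13, which encodes the related kinase LZK, showed no such steady difference. Baseline Gprin3 IPs, at 46.3 and 33.1 CPM, overlapped their inputs, with a difference of 0.33 ± 0.20 (edgeR adjusted p = 0.235). That baseline difference was called at 0.60 with the length trend taken out (edgeR adjusted p = 0.0304). WT Gprin3 IPs measured 49.7 and 60.6 CPM, above all WT inputs (41.7 to 48.5 CPM, median 45.9), a rise of 0.42 ± 0.12 (edgeR adjusted p = 0.0119). It was 0.26 without the second WT IP (edgeR adjusted p = 0.205) and 0.22 with the length trend taken out (edgeR adjusted p = 0.15). SOD1*G93A Gprin3 IPs measured 26.8, 38.0 and 42.3 CPM and overlapped their inputs at 36.7 to 44.8 CPM. They lay below the WT IPs, a difference of −0.64 ± 0.23 that was not called (edgeR adjusted p = 0.118). With the replicate number as a block it was called at −0.79 (edgeR adjusted p = 0.0451). With the length trend taken out it was −0.15 (edgeR adjusted p = 0.794). The SOD1*G93A effect in Gprin3 IPs fell below that in input by 0.58 (SE 0.19, edgeR adjusted p = 0.0342), and with the length trend taken out the difference was −0.04 (adjusted p = 0.912). It also lost the call when any of 8 single libraries was left out, with adjusted p of up to 0.253. The longest Map3k13 transcript has 8583 bases. In Colgalt2 IPs the WT libraries, at 67.0, 70.4 and 69.4 CPM, lay above all 4 SOD1*G93A libraries at 43.3, 46.2, 58.5 and 66.8 CPM, and the difference of −0.37 ± 0.19 was not called (edgeR adjusted p = 0.698).

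**Figure D2:**
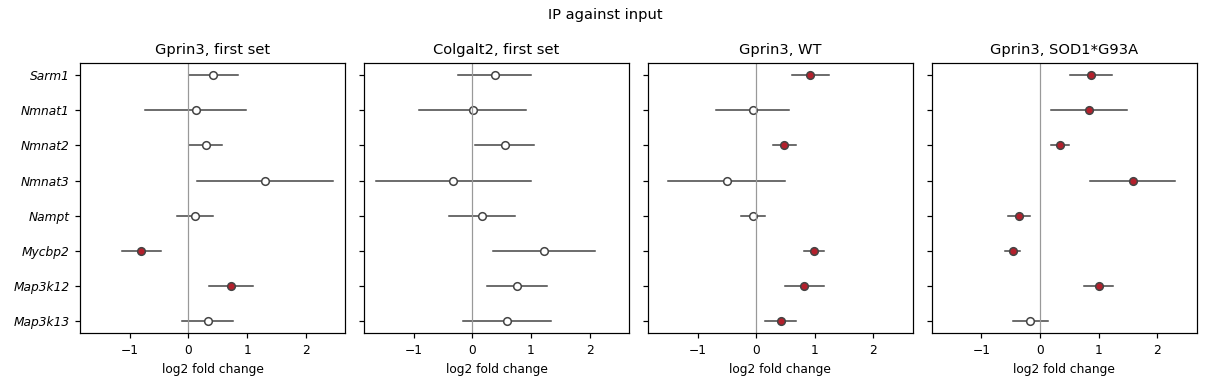
Log2 fold change of IP over input (horizontal axes) for each gene (vertical axis), in the baseline set (first set) of both lines and in WT and SOD1*G93A Gprin3 IPs against M1 input; points are edgeR estimates, lines their 95% confidence intervals, and red marks an adjusted p under 0.05. Map3k12 lies between 0.73 and 1.001 in all 4 panels, while Mycbp2 is at −0.80, 1.22, 0.99 and −0.46.

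Counted over the 8, Gprin3 IPs of the baseline set had 1 member called higher than input, where 13.9% of 14527 genes tested were called higher, and 1 called lower (Mycbp2), where 15.3% were. With single libraries left out, the Mycbp2 difference lay between −0.90 and −0.69 and that of Map3k12 between 0.46 and 0.95. In the second set, WT IPs had 5 members higher and 0 lower, where 20.6% and 19.8% of 14930 genes were called in those directions. SOD1*G93A IPs had 5 higher and 2 lower, where 24.7% and 25.1% of 14460 genes were. The median log2 fold change of the 8 was 0.31, 0.45 and 0.59 in these comparisons, beside −0.03, −0.04 and −0.03 over all genes tested. Colgalt2 IPs at baseline had 0 members called in either direction by edgeR, where 1.75% and 0.906% of 14240 genes were called higher and lower. There 3 members and 3594 genes had an unadjusted p under 0.05. DESeq2, which called 1855 of 13523 genes, called 2 of the 8, Mycbp2 and Map3k12. The authors' deposited table has 3 under 0.05, these and Nmnat2 (0.52, adjusted p = 0.0249). Without the first or the second Colgalt2 IP, the Mycbp2 difference was 0.49 or 1.68 and that of Map3k12 0.86 or 0.61.

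Mycbp2, the ubiquitin ligase component, differed from input in opposite directions in groups of the same line. Gprin3 IPs measured 195 and 177 CPM at baseline, 694 and 814 CPM in WT of the second set, and 283, 294 and 292 CPM in SOD1*G93A. Inputs hardly moved, at 429, 334 and 373 CPM at baseline, 403 to 426 CPM (median 419) in WT and 405 to 427 CPM (median 423) in SOD1*G93A. The WT IPs were thus above every input, and the baseline and SOD1*G93A IPs below every input. Against input, Mycbp2 fell by 0.80 (SE 0.15, edgeR adjusted p = 0.00203) at baseline, rose by 0.99 ± 0.08 (edgeR adjusted p = 1.1e-08) in WT and fell by 0.46 (SE 0.06, edgeR adjusted p = 2.06e-05) in SOD1*G93A.

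Between genotypes, Mycbp2 fell by 1.39 in SOD1*G93A Gprin3 IPs (SE 0.11, edgeR adjusted p = 0.000125), with no overlap. The authors' deposited table has a log2 fold change of −1.35 with an adjusted p of 0.00012. In M1 input the difference was 0.06 ± 0.05, and the interaction of −1.45 ± 0.09 was called (edgeR adjusted p = 7.26e-10). Colgalt2 IPs measured 633, 344 and 262 CPM in WT and 209, 348, 216 and 238 CPM in SOD1*G93A, which overlap, and the difference of −0.69 ± 0.25 was not called (edgeR adjusted p = 0.592). The effects in the lines differed by −0.66 ± 0.35, which was not called either (edgeR adjusted p = 0.607). The SOD1*G93A value in Gprin3 IPs lies between the WT IPs and the baseline IPs, which carry no SOD1*G93A transgene, and nearer to the latter.

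Transcript length moved with this result. The longest Mycbp2 transcript has 15233 bases, the longest of the 8, and 197 other tested genes within 25% of that length had a median log2 difference of −0.91 (quartiles −1.32 and −0.43) between SOD1*G93A and WT Gprin3 IPs; 45 of them were below Mycbp2. The 2435 tested genes with a longest transcript under 2000 bases had a median of 0.38. In WT IPs against input, genes of like length had a median of 0.43, and in SOD1*G93A IPs one of −0.44. With the length trend taken out of the fit, the Mycbp2 difference between genotypes in Gprin3 IPs was −0.43 (adjusted p = 0.0617), that between SOD1*G93A IPs and input turned to 0.06 (adjusted p = 0.472), that between WT IPs and input stayed called at 0.59 (adjusted p = 4.12e-06), that at baseline was −0.32 (adjusted p = 0.0498) and the interaction with input was −0.50 (adjusted p = 0.00198). The oligodendrocyte marker sums given above also separated the WT Gprin3 IPs from the rest, and their part in the result was not tested.

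**Figure D3:**
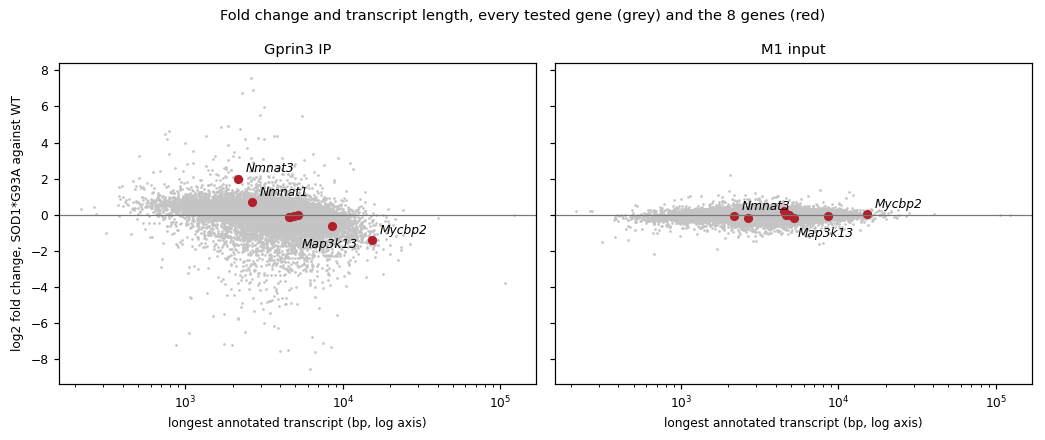
Log2 fold change of SOD1*G93A over WT (vertical axis) against the longest annotated transcript (horizontal axis, log scale) in Gprin3 IPs and M1 input; grey points are the 12942 genes tested in both with a length, red points are the 8 genes. In Gprin3 IPs the genes slope downward with length, and in M1 input they do not. Mycbp2 is at −1.39 in Gprin3 IPs. Nmnat3, at 2.01 there, lies above the slope: genes under 2000 bases had a median of 0.38, and Nmnat3 was at 1.82 with the length trend taken out.

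Baseline Gprin3 and Colgalt2 IPs differed in Mycbp2 in the same manner. The Colgalt2 IPs measured 979 and 390 CPM and the Gprin3 IPs 195 and 177 CPM, so they did not overlap, though the Colgalt2 pair differed widely. The difference was −1.85 ± 0.34 (edgeR adjusted p = 0.0072), 1 of 8 members called lower and 0 higher, where 4.45% and 2.22% of 13604 genes were called. It was −0.59 with the length trend taken out (adjusted p = 0.292), and 198 genes of like length had a median of −1.14. The oligodendrocyte markers summed to 330 and 729 CPM in these Colgalt2 IPs, above the Gprin3 IPs at 147 and 161 CPM, with 3 of 7 tested called. Vascular markers moved more: 8 summed to 44.2 and 99.1 CPM in Colgalt2 and to 3.13 and 3.94 CPM in Gprin3 IPs, with 7 of 8 called. The part of either in the result was not tested. Leaving out either Gprin3 IP ended the call (adjusted p = 0.0962 and 0.113), and leaving out single libraries moved the difference between −2.30 and −1.14. In the second set, WT Gprin3 IPs were instead above WT Colgalt2 IPs by 0.87 ± 0.28, which was not called (edgeR adjusted p = 0.0623) but was at 1.24 without the first WT Colgalt2 IP (edgeR adjusted p = 0.000428) and by DESeq2 (0.85, adjusted p = 0.0236). In that comparison 0 members were called higher and 1 lower (Map3k12), where 6.9% and 6.1% of 14813 genes were.

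Apart from Mycbp2, edgeR called no member between SOD1*G93A and WT in any of the 3 preparations, while DESeq2 also called Nmnat3 in Gprin3 IPs and Nampt in M1 input, as given above. In Gprin3 IPs 1 of 8 was lower and 0 higher, where 5.22% and 2.92% of 13726 genes were called. In Colgalt2 IPs the count was 0 in each direction, where 0% of 14785 genes were called by edgeR; 1 member and 1073 genes had an unadjusted p under 0.05, and DESeq2 called none of the 8. In M1 input it was also 0 by edgeR and 1 by DESeq2 (Nampt), where 2.13% of 14324 genes were called higher and 1.2% lower by edgeR; 1 member, Nampt, had an unadjusted p under 0.05. For Sarm1 the log2 differences were −0.06 (95% interval −0.60 to 0.48) in Gprin3 IPs, 0.06 (−0.34 to 0.46) in Colgalt2 IPs and −0.01 (−0.26 to 0.24) in M1 input. For Nmnat2 they were −0.12 (−0.42 to 0.17), 0.13 (−0.16 to 0.42) and 0.00 (−0.12 to 0.13), and for Map3k12 0.00 (−0.43 to 0.44), −0.23 (−0.58 to 0.11) and −0.18 (−0.39 to 0.03). Against input, the effect in Gprin3 IPs was called higher for 1 member (Nmnat3) and lower for 2 (Mycbp2 and Map3k13), where 6.78% and 11.4% of 15495 genes were. Between the lines, 0 members were called in either direction by edgeR and 0 had an unadjusted p under 0.05, where 0% of 15476 genes were called higher and 0.0775% lower, and DESeq2 called none of the 8.

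**Figure D4:**
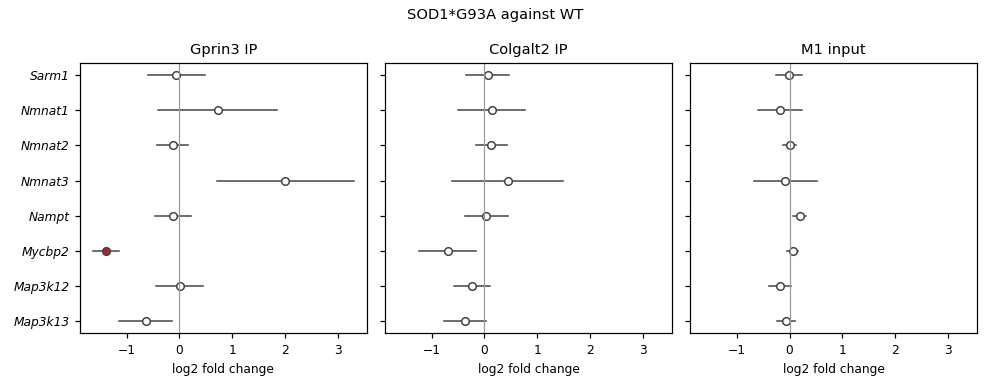
Log2 fold change of SOD1*G93A over WT (horizontal axes) for each gene (vertical axis) in Gprin3 IPs, Colgalt2 IPs and M1 input; points are edgeR estimates, lines their 95% confidence intervals, and red marks an adjusted p under 0.05. Mycbp2 in Gprin3 IPs, at −1.39, is the one red point, and the interval of Nmnat3 there runs from 0.71 to 3.30.

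**Figure D5:**
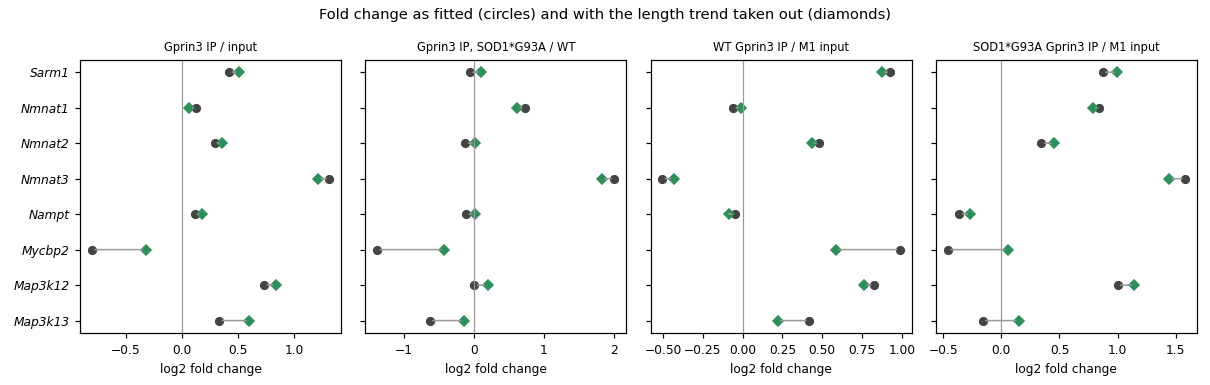
Log2 fold change of each gene (horizontal axes) as fitted (circles) and with the length trend taken out (diamonds) in 4 comparisons. Mycbp2 moves furthest, from −1.39 to −0.43 between genotypes in Gprin3 IPs, while Map3k12 stays between 0.73 and 1.15 in the 3 comparisons of IP with input.

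Of 19 other genes of NAD synthesis and transport, 11 to 15 passed the low-count filter, depending on the comparison. None was called higher in Gprin3 IPs than in input, and 4 of 12 were lower at baseline, 3 of 12 in WT and 4 of 13 in SOD1*G93A, where 15.3%, 19.8% and 25.1% of all genes tested were. Nadk2, the mitochondrial NAD kinase, averaged 11.6 CPM in baseline IPs and 28.4 CPM in inputs (−1.08 ± 0.22, edgeR adjusted p = 0.0034), and Pnp, which splits nicotinamide riboside, averaged 3.75 and 12.4 CPM (−1.51 ± 0.31, edgeR adjusted p = 0.0035). The list's median log2 fold change was 0.02, −0.32 and 0.08 in the 3 comparisons, against −0.03, −0.04 and −0.03 over all genes. Between genotypes, 1 of 12 was called in M1 input, where 2.13% of all genes were higher and 1.2% lower. It was Slc25a51, the mitochondrial NAD carrier, with 263 CPM in SOD1*G93A libraries against 212 CPM (0.35 ± 0.07, edgeR adjusted p = 0.0081). None was called in Gprin3 IPs, where 2.92% and 5.22% of all genes were, or in Colgalt2 IPs, where 0% were.

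Among 14 NAD consumers, Parp1, the main DNA-damage poly(ADP-ribose) polymerase, was higher in Gprin3 IPs than in input: 95.5 against 63.3 CPM at baseline (0.81 ± 0.15, edgeR adjusted p = 0.0016), 108 against 60.4 CPM in WT (0.97 ± 0.12, edgeR adjusted p = 4.4e-06) and 93.2 against 58.2 CPM in SOD1*G93A (0.75 ± 0.10, edgeR adjusted p = 4.2e-05). The deacetylase Sirt1 was lower at baseline, 8.21 against 17.8 CPM (−0.89 ± 0.28, edgeR adjusted p = 0.031), and in SOD1*G93A, 7.30 against 22.1 CPM (−1.54 ± 0.34, edgeR adjusted p = 0.0017). In all, 2 of 13 were higher and 3 lower at baseline, 2 and 2 in WT, and 4 and 2 in SOD1*G93A, beside shares over all genes of 13.9% and 15.3%, 20.6% and 19.8%, and 24.7% and 25.1%. Between genotypes in Gprin3 IPs 1 of 13 was called, where 2.92% of all genes were higher and 5.22% lower. It was the tankyrase Tnks2, with 168 CPM in SOD1*G93A libraries against 262 CPM (−0.65 ± 0.13, edgeR adjusted p = 0.013). The Tnks2 difference was −0.35 with the length trend taken out (edgeR adjusted p = 0.161).

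The regulators of NMNAT2, SARM1 and axon breakdown were 16 genes, and all 16 passed the filter. At baseline 7 were higher and 1 lower in Gprin3 IPs, in WT 10 and 4, and in SOD1*G93A 9 and 3, with medians of 0.41, 0.46 and 0.44. Over all genes, 13.9% were higher and 15.3% lower at baseline, 20.6% and 19.8% in WT, and 24.7% and 25.1% in SOD1*G93A. The calpain subunit Capn1, a protease that cuts the axonal cytoskeleton, averaged 23.1 CPM in WT IPs and 7.77 CPM in inputs (1.70 ± 0.22, edgeR adjusted p = 4.8e-06). Bcl2l2, a survival factor of the BCL2 family, was lower in WT IPs, 68.3 against 128 CPM (−0.78 ± 0.13, edgeR adjusted p = 0.00011). Between genotypes in Gprin3 IPs 3 were higher and 3 lower, where 2.92% and 5.22% of all genes were, with a median of 0.10. With the length trend taken out 1 was higher and 0 lower, where 264 and 219 of all 13726 genes were. Without the first or the second WT IP the median was 0.17 or 0.15. Skp1a, whose protein joins MYCBP2 in the ligase acting on NMNAT2, averaged 571 CPM in SOD1*G93A against 333 CPM in WT (0.77 ± 0.12, edgeR adjusted p = 0.0039). Tsc2, which restrains mTORC1, averaged 50.4 and 89.0 CPM (−0.83 ± 0.18, edgeR adjusted p = 0.021; 0.126 with the length trend taken out). Fbxo45, the F-box partner of MYCBP2, was the 1 of 16 called in M1 input, where 2.13% of all genes were higher and 1.2% lower. It averaged 194 CPM in SOD1*G93A libraries against 159 CPM (0.34 ± 0.08, edgeR adjusted p = 0.019).

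Of 19 MAP kinase genes upstream of, beside and below DLK and LZK, 0 were higher and 6 lower in SOD1*G93A than in WT Gprin3 IPs, with a median of −0.40 against 0.01 over all genes, of which 2.92% were higher and 5.22% lower. Transcript length (Spearman −0.39) and the glial markers of the WT IPs moved with this comparison. With the length trend taken out 1 was lower, where 219 of all 13726 genes were, and the median was −0.02. Without the first or the second WT IP the median was −0.35 or −0.31. Map3k5 (ASK1), another kinase of the JNK pathway, averaged 24.6 CPM in SOD1*G93A against 56.3 CPM in WT (−1.20 ± 0.25, edgeR adjusted p = 0.017; 0.0544 with the length trend taken out). The JNK scaffold gene Mapk8ip2 averaged 47.6 and 100.05 CPM (−1.07 ± 0.19, edgeR adjusted p = 0.0079). In WT IPs against input 5 were higher and 0 lower, among them the scaffold Mapk8ip3 at 364 against 168 CPM (1.24 ± 0.09, edgeR adjusted p = 4e-09). Over all genes in that comparison, 20.6% were higher and 19.8% lower. In SOD1*G93A IPs against input 4 were higher and 8 lower, where 24.7% and 25.1% of all genes were. At baseline 2 were higher and 4 lower, where 13.9% and 15.3% were. Between genotypes in M1 input 2 were higher, Mapk8 (JNK1) and Usp9x, the deubiquitinase that stabilizes DLK. There 1 was lower, Mapk8ip1 at 125 against 157 CPM (−0.28 ± 0.06, edgeR adjusted p = 0.015). Over all genes, 2.13% were higher and 1.2% lower in M1 input.

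Of 16 injury response genes downstream of DLK, 12 could be tested between genotypes in Gprin3 IPs; 3 were higher and 0 lower, with a median of 0.57 against 0.01 over all genes, of which 2.92% were higher and 5.22% lower. With the length trend taken out 1 was higher, where 264 of all 13726 genes were, and the median was 0.32. Without the first or the second WT IP, the libraries with the higher glial marker sums, the median was 0.63 or 0.44. The part of the glial markers in these group counts was not tested. Gap43, the growth-cone protein, averaged 467 CPM in SOD1*G93A against 266 CPM in WT (0.81 ± 0.14, edgeR adjusted p = 0.0084; 0.0913 with the length trend taken out), and Atf4, a transcription factor of the integrated stress response, 209 and 137 CPM (0.61 ± 0.13, edgeR adjusted p = 0.018; 0.118 with the length trend taken out). Gap43 was also higher in baseline Gprin3 IPs, which carry no SOD1*G93A transgene, at 423 CPM against 283 CPM in input (0.80 ± 0.16, edgeR adjusted p = 0.0025). In Colgalt2 IPs none of 13 was called by edgeR, with a median of −0.09, and 0% of all 14785 genes tested there were called. In M1 input 1 of 11 was higher, where 2.13% of all genes were. It was Atf2, at 961 against 801 CPM (0.30 ± 0.06, edgeR adjusted p = 0.0048). Jun, a main target of JNK, was lower in WT Gprin3 than in WT Colgalt2 IPs, at 23.7 and 56.3 CPM (−1.26 ± 0.24, edgeR adjusted p = 0.008). Line and tissue cannot be told apart in that comparison. Of 13 list genes tested in it, 1 was higher and 3 were lower, where 6.9% and 6.1% of all genes were.

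Across the means of the 10 groups, the genes whose log2 CPM went most closely with each member among 10245 genes were found by Pearson's r, as a description of groups that share lines and sets. Map3k12 was the third nearest gene to Sarm1 (r = 0.97), after Ptprr and Ap3s2 (both 0.98). The nearest to Map3k12 were Prpf19, Kat2a and Kcng1 (0.99, 0.99 and 0.98), and to Nmnat2 Mark3, Ppip5k1 and Magee2 (all 0.98). Mycbp2 went with Ylpm1, Mga and Mtmr3 (all 0.98), genes whose longest transcripts have 7003, 13931 and 5674 bases. Map3k13 went with Nek1, Smc3 and Pcdhga8 (0.98, 0.97 and 0.97), Nampt with Scai, Megf11 and Fsd1l (all 0.95), Nmnat3 with Ssbp2, Mrpl19 and Clybl (0.95, 0.95 and 0.94) and Nmnat1 with Mcts2, Cox18 and Coq4 (0.92, 0.92 and 0.91).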

How the data were processed

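Ribosome-bound RNA (IP) and input RNA of cortex were sequenced in 32 libraries. By the labels' protocols, 15 ng of total RNA was amplified by the NuGEN Ovation system before libraries were made. Per the submitters' processing notes, Subread, featureCounts and DESeq2 1.26.0 were used with mm10; versions of the others are not given in the sources used here. The deposited files hold gene counts for 24100 features, of which 9 without a symbol (at most 0.0201% of a library) were left out. The authors' 6 deposited comparison tables hold log2 fold changes with standard errors and an adjusted p-value, which were copied for single genes; 36 columns of values per library in them were not used.

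Groups were taken from the labels. The 8 genes, the gene lists and the tests were chosen with earlier results of these data known. Counts were tested with edgeR 4.0.16 (R 4.3.3): filterByExpr, TMM factors, quasi-likelihood F test, BH adjustment over all genes tested, threshold 0.05. Each pairwise comparison used its own groups, and the interactions used 12 and 16 libraries. CPM relate counts to each library's own total, with no factors; lengths are of the longest GENCODE transcript (21166 genes). Named genes are all 8 members, up to 2 list genes per direction with the largest called change, and the 3 genes nearest each member among those averaging at least 5 CPM; not every gene so named is printed. Alternatives were RLE factors, no filter, DESeq2 1.42.0, a replicate block, a lowess length trend (span 0.3) taken out as an offset, each library left out, and, for Colgalt2 IPs, the sequenced read as covariate or R2 libraries alone. For the gene lists between genotypes in Gprin3 IPs, the length trend and leaving out each WT IP were chosen after seeing the data. The scripts were tested on simulated data.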

Additional observations from a re-analysis of the deposited data

Results flagged for a closer look

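The Map3k12 level of 69.3 CPM in the third WT M1 input lay far from the other 4 WT inputs, the nearest of which was at 47.2 CPM. It was the 1 value so far apart among 24 sets of 4 to 6 libraries (8 genes in 3 groups); chance gives about 1 in 20. Without that library the difference between SOD1*G93A and WT M1 inputs was −0.03 on the log2 scale in place of −0.18, and it was not called either way.

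The effect of SOD1*G93A differed between Gprin3 IPs and M1 input in 3 of the 8 genes by the test of the difference itself (edgeR's quasi-likelihood test, BH). The differences were 2.08 for Nmnat3 (adjusted p = 0.0229), −1.45 for Mycbp2 (adjusted p = 7.26e-10) and −0.58 for Map3k13 (adjusted p = 0.0342). Among all 15495 genes tested, 6.78% were called higher and 11.4% lower. Map3k13 was not called with the length trend taken out. Nmnat3 was not called with the replicate number as a block (1.67, edgeR adjusted p = 0.0948). The Map3k13 and Nmnat3 calls also depended on single libraries, as given above.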

How the results depend on the processing

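All 88 differences, 8 genes in 11 comparisons, were refitted under each alternative. Calls over all genes moved as well. With the length trend taken out they went from 4242 to 4354 of 14527 genes for baseline Gprin3 IP against input. For baseline Gprin3 against Colgalt2 IP they went from 907 to 275 of 13604, and for SOD1*G93A in Gprin3 IPs from 1118 to 483 of 13726. Taking out the length trend changed most: the number of the 8 called went from 2 to 4 for baseline Gprin3 IP against input, from 1 to 0 for baseline Gprin3 against Colgalt2 IP and from 1 to 0 for SOD1*G93A in Gprin3 IPs. It turned the sign in baseline Gprin3 against Colgalt2 IP (Sarm1 0.14, Map3k12 0.13 and Map3k13 0.27), in SOD1*G93A in Gprin3 IPs (Sarm1 0.10, Nmnat2 0.018 and Nampt 0.012), in the effect in Gprin3 less Colgalt2 IPs (Sarm1 0.025 and Map3k13 0.059), in the effect in Gprin3 IPs less input (Sarm1 0.17 and Nmnat2 0.060), in SOD1*G93A Gprin3 IP against input (Mycbp2 0.059 and Map3k13 0.15). Of these the Mycbp2 difference alone had been called. With no low-count filter, 1 of the 8 was called for baseline Colgalt2 IP against input and 2 for SOD1*G93A in Gprin3 IPs and for WT Gprin3 against Colgalt2 IP. By DESeq2 these counts were 2, 2 and 2, and 1 in M1 input. Over all genes, no filter gave 1742 of 18450, 1720 of 17334 and 2465 of 18922 called in those comparisons. DESeq2 gave 1855 of 13523, 1988 of 14042 and 2869 of 15668, and 895 of 10825 in M1 input. The main fit had called 378 of 14240, 1118 of 13726, 1926 of 14813 and 477 of 14324. RLE factors changed no call. For Nmnat1 in baseline Colgalt2 IP against input, RLE gave −0.0091, no filter −0.012 and DESeq2 −0.0070. The sequenced read as covariate and the R2 libraries alone left all 8 genes uncalled in Colgalt2 IPs.

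Replicate numbers, taken from the titles (those of the deposited file names differ for some libraries and were not tried), did not pair the samples: correlations of deviations between libraries of one number lay between −0.08 and 0.07. With the number as a block, 1 of the 8 was called for baseline Colgalt2 IP against input, 2 for SOD1*G93A in Gprin3 IPs, 2 for WT Gprin3 against Colgalt2 IP and 4 in place of 7 for SOD1*G93A Gprin3 IP against input, where Nmnat1 (1.06, adjusted p = 0.108), Nmnat2 (0.29, adjusted p = 0.0762) and Nmnat3 (1.51, adjusted p = 0.0723) were no longer called. The Nmnat3 effect in Gprin3 IPs less input was then 1.67 (adjusted p = 0.0948). Nmnat3 in M1 input became 0.0065 and Nmnat1 in WT Gprin3 IP against input 0.16. With the block, all-gene calls were 1506 of 14240 for baseline Colgalt2 IP against input and 1748 of 13726 for SOD1*G93A in Gprin3 IPs. They were 2249 of 14813 for WT Gprin3 against Colgalt2 IP, and 4142 in place of 7202 of 14460 for SOD1*G93A Gprin3 IP against input.

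With single libraries left out, the number of the 8 called ranged from 1 to 4 for baseline Gprin3 IP against input, 0 to 4 for baseline Colgalt2 IP against input, 0 to 1 for baseline Gprin3 against Colgalt2 IP, 1 to 2 for SOD1*G93A in Gprin3 IPs, 1 to 4 for the effect in Gprin3 IPs less input and 0 to 2 for WT Gprin3 against Colgalt2 IP. Differences that changed sign for some library, none of them called, had these ranges: baseline Gprin3 IP against input (Nmnat1 −0.13 to 0.41), baseline Colgalt2 IP against input (Nmnat1 −0.30 to 0.38 and Nampt −0.095 to 0.33), baseline Gprin3 against Colgalt2 IP (Sarm1 −0.26 to 0.24, Nampt −0.37 to 0.077, Map3k12 −0.33 to 0.18 and Map3k13 −0.62 to 0.17), SOD1*G93A in Gprin3 IPs (Sarm1 −0.19 to 0.099, Nmnat2 −0.26 to 0.032 and Map3k12 −0.16 to 0.18), SOD1*G93A in Colgalt2 IPs (Sarm1 −0.046 to 0.21 and Nampt −0.12 to 0.25), SOD1*G93A in M1 input (Sarm1 −0.10 to 0.037, Nmnat2 −0.030 to 0.031 and Nmnat3 −0.25 to 0.14), the effect in Gprin3 less Colgalt2 IPs (Sarm1 −0.23 to 0.066 and Nampt −0.32 to 0.021), the effect in Gprin3 IPs less input (Sarm1 −0.18 to 0.11 and Nmnat2 −0.25 to 0.029), WT Gprin3 IP against input (Nmnat1 −0.23 to 0.089), WT Gprin3 against Colgalt2 IP (Nmnat2 −0.018 to 0.27). The causes were not tested. Where a fit left 1 library in a group, that library was assumed to vary like the others. Calls over all genes moved widely in such fits too, so the counts of the 8 there do not single them out. Counts of Nmnat3 and Nmnat1, down to 22 and 69 in a library, limit what can be said of them.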
